A study of Mus musculus with 4 samples.

Results

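Start sites of Neb and Nrap, both members of the nebulin family of actin filament proteins, were followed in skeletal muscle of mice with and without the α2 subunit of AMP-activated protein kinase (AMPK). All rows of the start site table that carried the symbol Neb or Nrap were taken, 143 and 16 rows, together 159 of 42207 sites. Rows were taken by symbol alone, whatever their counts, but the genes were chosen with earlier results of these data known. The groups were adult AMPKα2-/- mice (KO, n = 2) and wild-type controls (WT, n = 2), male and of C57BL/6 background per the study's methods, with 1 library of gastrocnemius RNA per mouse. Prkaa2 encodes AMPKα2, which carries kinase activity in this sensor of cellular energy, and the knockout allele lacks part of its catalytic domain, with no restriction to muscle described. The libraries profiled 5′ ends by WTSS-seq (whole transcriptome start site sequencing), in which a read marks the 5′ end of a complementary DNA, whether that end is a true transcription start or the end of an RNA fragment.

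Nebulin is a giant protein that lies along the thin filament of skeletal muscle. Its carboxyl end is anchored in the Z-disc, its amino end reaches toward the pointed end of the filament, and its many repeats bind actin, tropomyosin and troponin. Nrap, the nebulin-related anchoring protein, carries a LIM domain and nebulin repeats, takes part in myofibril assembly and is found at myotendinous junctions and at the intercalated discs of the heart. Loss of nebulin causes nemaline myopathy. In the long nebulin transcript, start sites far inside the gene can be read as ends of processed or broken RNA as well as starts.

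Depth differed between the genotypes. The KO libraries held 2900279 and 2303294 reads and the WT libraries 1300069 and 1568945. A site needed at least 10 reads over the 4 libraries to be in the table, so that sites of the deeper KO libraries were admitted more readily. All 6 skeletal muscle markers had reads, as did all 4 adipocyte and all 4 fibroblast markers, whereas 1 of 4 cardiac muscle markers was in the table. Of the other lists, 4 of 5 slow fibre, 2 of 5 blood, 2 of 2 myotendinous junction and 2 of 3 Schwann cell markers were in it. Summed Prkaa2 reads did not separate the genotypes (244 and 209 reads for KO, 109 and 149 for WT, with a log2 fold change of -0.031). Of its 19 sites, 2 had no read in either KO library, and where they lie in the gene was not examined. Over the whole table, 41240 of 42207 sites had a read in at least 1 KO library. Replicates differed by more than sampling noise at Neb (chi-square per degree of freedom of 5.14 in KO, 5.38 in WT), so each library was counted as 1 sample.

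The only member that covered an annotated promoter start with a sequence entry lay in Nrap. Neb had 0 promoter entries, so none of its sites could qualify. The Nrap site is shown because it ties 1 of the 16 Nrap sites to an annotated start of transcription. The region is chr19:56389989-56390288 of GRCm38.p6 (RefSeq), minus strand, 5′ to 3′, a stretch of 300 bases around the start, with the 50 bases of the site (chr19:56390005-56390054) in capitals.
Nrap promoter: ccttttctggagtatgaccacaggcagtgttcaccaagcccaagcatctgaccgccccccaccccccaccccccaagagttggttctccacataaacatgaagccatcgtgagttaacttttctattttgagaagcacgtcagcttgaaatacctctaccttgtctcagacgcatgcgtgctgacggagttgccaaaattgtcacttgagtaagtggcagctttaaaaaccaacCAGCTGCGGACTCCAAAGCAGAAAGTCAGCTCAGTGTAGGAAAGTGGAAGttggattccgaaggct
The representative position of the site lay 11 bases downstream of that promoter's start. On either strand the window held 3 matches to the E-box CANNTG, the letters bound by myogenic factors such as MyoD, and 72.3% of 32851 promoters of the same length held at least 1. Of these matches, 1 read CAGCTG and opened the site 16 bases upstream of the start, a form present in 16.3% of promoters. The TATA box letters TATAAA were not in this window and were in 13.6% of promoters.

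Neb ranked 4th by number of start sites among the 9838 genes of the table, and its reads were spread along its whole length. The gene occupies chr2:52136640-52338798 of GRCm38 on the minus strand, 202 kb. Of its 143 sites, 139 lay on the strand of the gene and 4 on the opposite strand. They were 1 to 244 bases wide (median 38), the median gap between neighbours was 0.795 kb, and they held 10 to 5092 reads over the 4 libraries, with a median of 26. Reads in all 4 libraries were present at 94 sites. WT replicate 1, the shallowest library, had reads at 111 sites against 129 to 135 in the others. Ttn, which encodes titin, had 556 sites.

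Summed over its sites, Neb did not differ detectably between the genotypes. It drew 5399 and 4707 reads in the KO libraries against 2237 and 3810 in the WT libraries, which was 0.186%, 0.204%, 0.172% and 0.243% of the library. The normalized gene counts were 3298 and 4113 in KO against 3137 and 4745 in WT, so that both KO values lay between the 2 WT values. The log2 fold change of KO over WT was -0.089 (SE 0.41, Wald test of DESeq2, adjusted p = 0.992), and its 95% interval ran from -0.90 to 0.72, or from 0.536 to 1.65 times the WT level. Of all genes tested, 2.67% passed the threshold of 0.1 in this comparison.

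**Figure D1:**
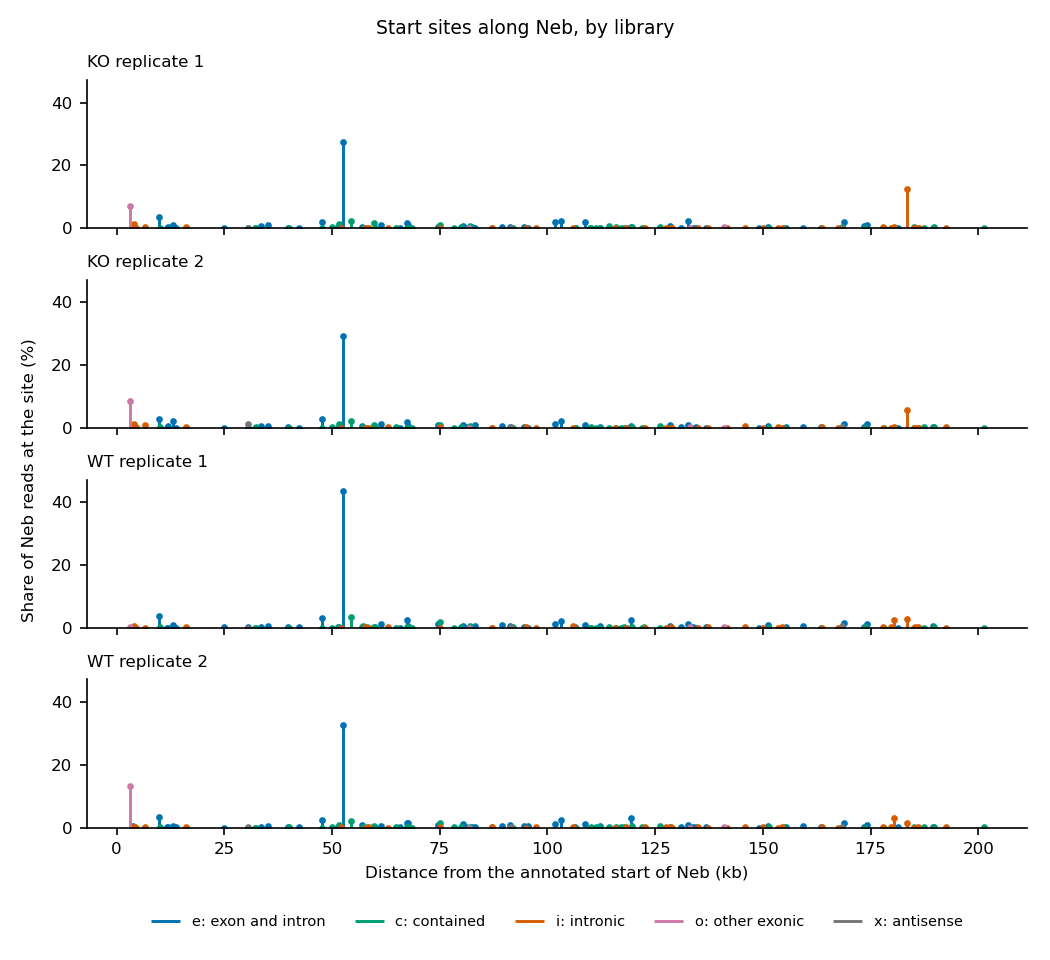
Share of all Neb reads at each of the 143 Neb start sites (vertical axis, percent) against the distance of the site from the annotated start of the gene (horizontal axis, kb), in 1 panel per library and coloured by class code. The exon and intron site 52.6 kb from the start was highest in every library, at 27.5% to 43.7% of Neb reads, and the intronic site 184 kb from the start reached 12.4% and 5.74% in KO against 2.68% and 1.47% in WT.

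A single site far inside the gene held the most Neb reads in every library. It lay at chr2:52286027-52286190, 52.6 kb from the annotated start, with class code e, which marks a site that runs from an exon into an intron. It had 1487 and 1380 reads in KO against 978 and 1247 in WT, which was 27.5% (95% Wilson interval 26.4% to 28.7%), 29.3% (28.0% to 30.6%), 43.7% (41.7% to 45.8%) and 32.7% (31.3% to 34.2%) of the reads of the gene. Both WT libraries were above both KO libraries, also as normalized counts (976 and 1191 in KO, 1327 and 1440 in WT), yet the difference did not pass the test (log2 fold change of -0.35, SE 0.54, adjusted p = 1.00 by DESeq2). Such intervals cover counting error only, since reads copied by PCR were not marked by molecular identifiers.

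The sense-strand site nearest the annotated start of Neb was nearly missing from 1 WT library. It lay at chr2:52335728-52335793, 3.03 kb inside the gene, with code o for another overlap with an exon. It had 386 and 407 reads in KO but 3 in WT replicate 1, whereas WT replicate 2 had 500, where it made up 13.1% of Neb reads. The next site, 37 bases wide, of code e and 3.69 kb from the start, had 18 and 10 reads in KO, 0 in WT replicate 1 and 19 in its fellow WT library, where a count of 0 allows up to 3 reads. The WT libraries thus lay on either side of KO at the 5′ end of the gene, and their mean ± SD at the nearest site was 291 ± 406 normalized counts (n = 2), against 302 ± 69.2 in KO. No difference was called there with all libraries (log2 fold change of 0.055, SE 1.12, adjusted p = 1.00 by DESeq2), but when WT replicate 2 was left out the site was called higher in KO, at 6.17 on the log2 scale (adjusted p = 4.06e-05), a value that rests on WT replicate 1 alone. Another site, intronic and 4.02 kb from the start, had 82 and 65 reads in KO against 14 and 11 in WT. There the groups did not overlap, and the log2 fold change of 1.80 (SE 0.93) did not pass (adjusted p = 0.545 by DESeq2). The remaining sites among the 5 highest, both of code e, lay 9.90 kb and 47.6 kb from the start. The first had 187 and 133 reads in KO against 83 and 125 in WT, the other 103 and 140 in KO against 69 and 95 in WT, and after normalization the groups overlapped at both. At the other end of the gene, the last site lay 201 kb from the start and had 5 and 0 reads in KO against 1 and 5 in WT.

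Of the 143 Neb sites, 57 had counts high enough for a site test, and 2 passed it, 1 higher and 1 lower in KO. Of all sites tested, 2.33% were called higher and 0.882% lower, beside which 1 of 57 is 1.75% in each direction. Of the 57 sites, 30 had a positive and 27 a negative log2 fold change, with a median of 0.055 against 0.097 over all sites tested. Both KO libraries lay above both WT libraries at 17 of the 57 sites, 29.8%, against 23.0% of all sites tested, and below them at 6 sites, 10.5%, against 17.4%.

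Both called sites were intronic, and they lay 3.05 kb apart near the 3′ end of the gene, where the sequence for the Z-disc end of nebulin is encoded. The site that was higher in KO was chr2:52155182-52155351, 170 bases wide and 184 kb from the annotated start. It held 672 and 270 reads in KO against 60 and 56 in WT, or 441 and 233 against 81.4 and 64.7 normalized counts. Its log2 fold change was 2.21 (SE 0.65, adjusted p = 0.0408 by DESeq2), a rise seen in 2 of 2 KO libraries, with KO replicate 1 well above KO replicate 2. As a share of Neb reads it made up 12.4% (95% Wilson interval 11.6% to 13.4%) and 5.74% (5.11% to 6.44%) in KO, and 2.68% (2.09% to 3.44%) and 1.47% (1.13% to 1.90%) in WT.

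The site that was lower in KO, chr2:52158243-52158272, was 30 bases wide and lay 181 kb from the start. It held 14 and 18 reads in KO against 55 and 117 in WT, although both KO libraries were deeper. The normalized counts were 9.19 and 15.5 in KO against 74.6 and 135 in WT, which gave -3.09 on the log2 scale (SE 0.84, adjusted p = 0.0184 by DESeq2). Its share of Neb reads was 0.259% and 0.382% in KO against 2.46% and 3.07% in WT, with 95% Wilson intervals, for counting error only, of 0.155% to 0.435% and 0.242% to 0.604% in KO and of 1.89% to 3.19% and 2.57% to 3.67% in WT.

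Neither call held with the other count test or as a change of usage. The quasi-likelihood test of edgeR gave adjusted p = 0.199 for the site higher in KO and 0.124 for the lower one. It called 0 of the 59 Neb sites it tested, with 4 at an unadjusted p under 0.05 against 5 by DESeq2, and 0.712% of all sites it tested. Usage, the site's share of the reads of its gene, was tested with diffSpliceDGE of edgeR. For Neb the Simes adjusted p over its 59 sites was 0.657, and for the single sites the adjusted p was 0.390 for the higher and 0.137 for the lower, with 0 sites called and 3 at an unadjusted p under 0.05. Usage calls were made in 1.37% of genes and 0.757% of sites tested. Within DESeq2, both site calls were lost without KO replicate 1 (adjusted p = 1.00 for the higher, 0.628 for the lower), without KO replicate 2 (1.00 and 0.925) and without WT replicate 2 (0.304 and 0.485), and with independent filtering off the higher was lost (0.155).

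**Figure D2:**
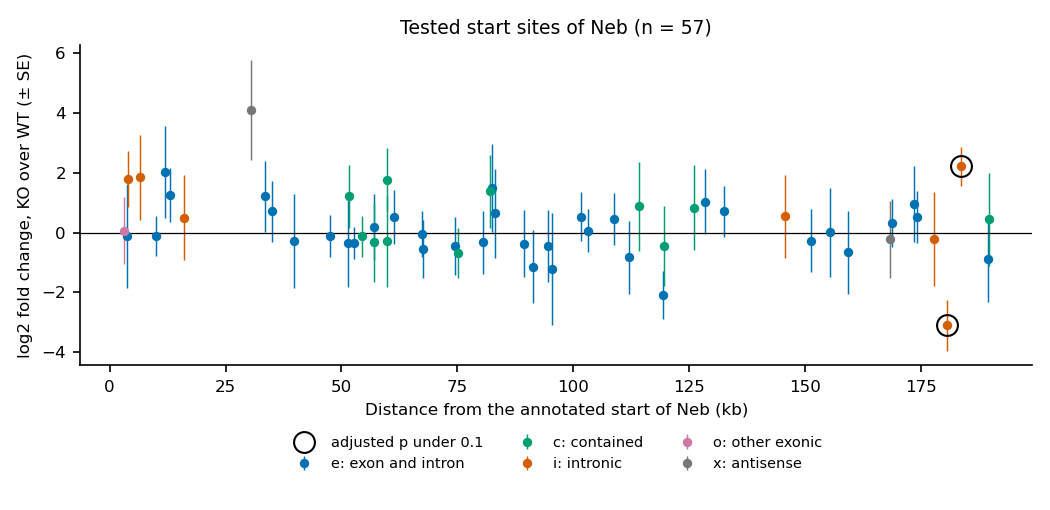
The log2 fold change of KO over WT with its standard error (vertical axis) at each of the 57 tested Neb sites against its distance from the annotated start (horizontal axis, kb), coloured by class code. Black rings mark the 2 sites with an adjusted p under 0.1, intronic sites at 181 kb (-3.09) and 184 kb (2.21).

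Other Neb sites with large differences did not pass. The exon and intron site at chr2:52219290-52219414, 119 kb from the start, was outside the naming rule and chosen after its values were seen. It had 27 and 38 reads in KO against 58 and 118 in WT, and the log2 fold change was -2.10 (SE 0.80, adjusted p = 0.192 by DESeq2). On the opposite strand, an antisense site of 14 bases at chr2:52308251-52308264 had 9 and 64 reads in KO against 0 and 3 in WT, so that 1 KO library held most of its reads (adjusted p = 0.251). A second antisense site, at chr2:52170492-52170506, had 13 and 20 reads in KO against 12 in each WT library. The 4 opposite-strand sites made up 0.593% and 2.17% of Neb reads in KO against 0.805% and 0.630% in WT.

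**Figure D3:**
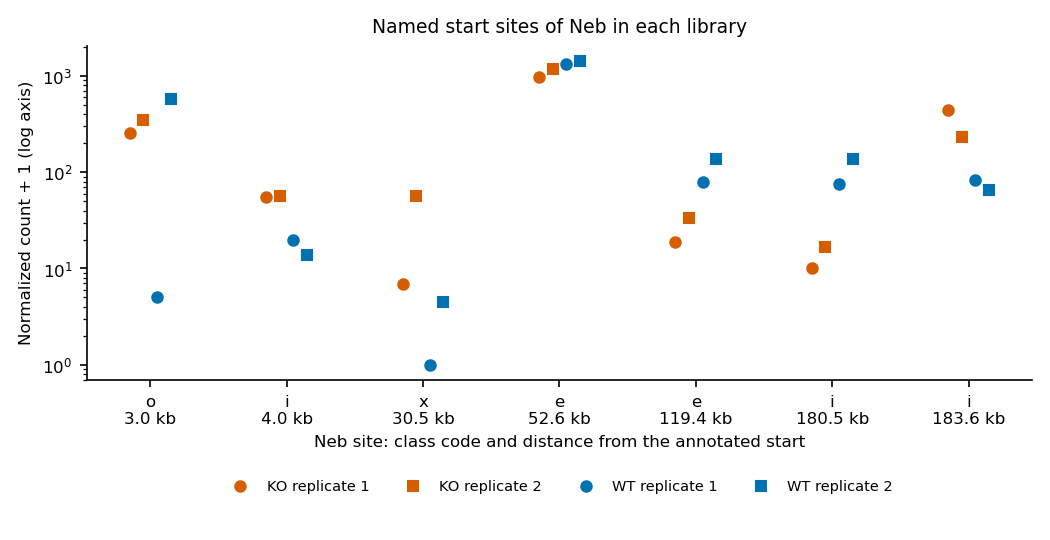
Normalized counts plus 1 (vertical axis, log scale) of 7 Neb sites in each library, ordered by distance from the annotated start, with KO in orange and WT in blue, circles for replicate 1 and squares for replicate 2. WT replicate 1 lies far below the other libraries at the site 3.0 kb from the start, the only plotted site where the groups overlap. The sites 180.5 kb and 183.6 kb from the start are those called.

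Sites that run from an exon into an intron were the most frequent kind in Neb. They were 51 of its 143 sites, 35.7%, against 3.2% of all sites with a gene and 16.2% of Ttn sites. Contained sites (code c, within an annotated transcript) numbered 44, intronic sites 41, other exonic overlaps 4 and sites antisense to an exon 3. Neb e sites were wider, with a median of 53 bases, than its c sites (37 bases) and its intronic sites (16 bases). The order was the same over all sites with a gene (66, 25 and 7 bases) and in Ttn (110, 51 and 23). Intronic sites were 28.7% of Neb sites against 52.0% of all sites with a gene, where their median width was 7 bases. These are descriptions of where reads fell, and Neb holds repeated and closely similar exons among which reads may not be assigned with certainty.

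The e sites held 60.8% and 63.7% of Neb reads in KO against 78.0% and 65.9% in WT. Intronic sites held 17.7% and 12.9% in KO against 10.5% and 9.50% in WT, and both KO libraries were above both WT libraries. Of all reads assigned to genes, intronic sites held 23.9% and 18.6% in KO against 21.6% and 15.6% in WT, where the groups overlapped. Intronic sites of Ttn held 11.8% and 9.89% of its reads in KO against 8.48% and 7.55% in WT, so that both KO libraries were above both WT libraries there too. When the 2 called sites were left out, a choice made after the values were seen, the intronic share of Neb was 5.71% and 7.17% in KO against 5.61% and 5.20% in WT. Both KO libraries thus remained above both WT libraries. The difference between the group means was 5.29 percentage points with these sites and 1.04 without them. The larger of the 2 had been called for being higher in KO, so this drop was partly built into the choice. With 2 against 2 libraries an exact permutation test cannot give a two-sided p under 0.333, so that shares were not tested. Counting error put at most 2.07 percentage points on either side of a Neb share by class or position.

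The gene was divided into 10 equal parts, counted from its annotated start, to follow reads along it. Part 3 held 37.3% and 39.9% of sense-strand reads in KO against 53.4% and 41.5% in WT, and this is where the highest site lay. Part 1 held 15.5% and 18.4% in KO, but 6.44% and 19.1% in the WT libraries. Part 10, at the 3′ end, held 13.6% and 7.27% in KO against 4.33% and 2.64% in WT. Without the 2 called sites, of which 1 lies in it, part 10 held 1.20% and 1.51% in KO against 1.71% and 1.22% in WT, and the groups overlapped. The mean position of a read was 40.5% and 35.9% of the way along the gene in KO against 37.8% and 34.2% in WT, values that overlap between the groups.

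**Figure D4:**
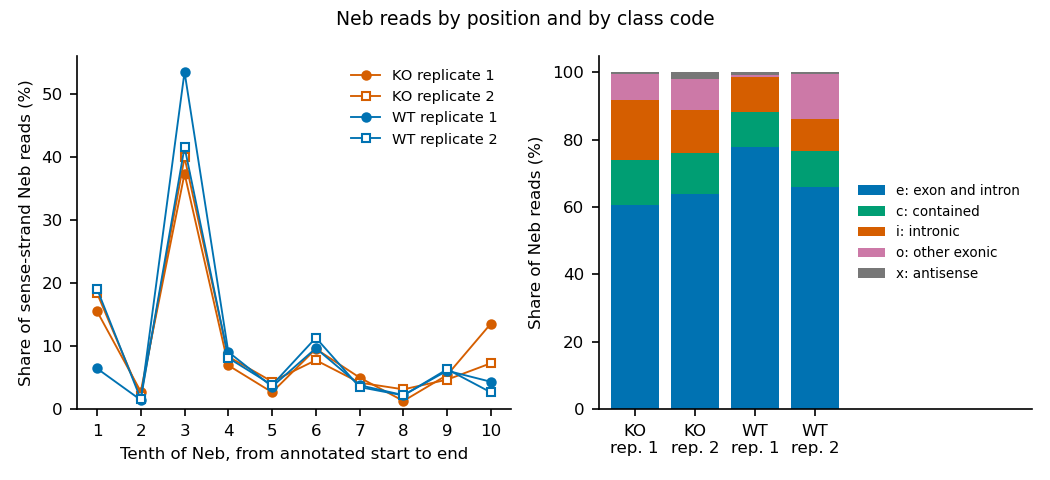
Left, share of sense-strand Neb reads (percent) in each of 10 equal parts of the gene from annotated start to end, with 1 line per library, KO in orange and WT in blue. Right, share of Neb reads (percent) by class code, stacked per library. Part 3 was highest in all 4 libraries, and part 10 was higher in both KO libraries (13.6% and 7.27%) than in WT (4.33% and 2.64%).

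Nrap was read far more sparsely. The gene occupies chr19:56320037-56390062 of GRCm38 on the minus strand, 70.0 kb, and all 16 of its sites lay on that strand. It drew 143 and 90 reads in the KO libraries against 55 and 79 in the WT libraries, 0.0039% to 0.00504% of a library, and no site had over 58 reads in all. The sites comprised 6 contained, 5 intronic, 3 other exonic and 2 exon and intron sites, 4 to 60 bases wide. As for Neb, the summed level did not differ detectably. The normalized gene counts were 87.3 and 78.6 in KO against 77.1 and 98.4 in WT (log2 fold change of -0.081 with an SE of 0.59, adjusted p = 0.992 by DESeq2), and the 95% interval ran from -1.23 to 1.07.

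The Nrap site at the promoter start, whose sequence is printed above, had 4 and 3 reads in KO against 5 and 7 in WT. Both WT libraries were above both KO libraries, but counts this low were not tested for it and lie close to the floor of 3 reads. Its share of Nrap reads was 3.07% ± 0.38 in KO against 8.98% ± 0.16 in WT (SD, n = 2). These SDs leave out counting error, which is wide at 3 to 7 reads. The highest Nrap site, of code c at chr19:56335273-56335332 and 54.8 kb from the start, had 27 and 17 reads in KO against 8 and 6 in WT. A pair of further sites with a test lay at 9.74 kb (7 and 11 reads in KO, against 5 and 14 in WT) and at 68.1 kb (18 and 12 reads in KO, against 7 and 9 in WT). None of the 3 tested Nrap sites was called by DESeq2, with 0 at an unadjusted p under 0.05. Near the start, the e sites at 3.98 kb and 8.45 kb had 16 and 12, and 6 and 6 reads in KO, and each had 5 and 3 reads in WT. The c site at 54.9 kb had 13 and 4 reads in KO against 7 and 5 in WT, and the site nearest the end of the gene, of code o, had 7 and 0 in KO against 0 and 8 in WT.

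Reads of Nrap were spread over its sites more evenly than those of Neb. The largest share of a single site was 18.9% in both KO libraries against 14.5% and 17.7% in the WT libraries, and counting error put up to 12.8 percentage points on either side of a share by class or position. Intronic sites held 11.9% and 17.8% of Nrap reads in KO against 23.6% and 17.7% in WT. Usage of Nrap sites gave a Simes adjusted p of 1.00 over 3 sites. The mean position of a read was 52.0% ± 6.52 of the way along the gene in KO against 48.0% ± 2.79 in WT (SD, n = 2), a difference within the spread of the KO libraries.

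**Figure D5:**
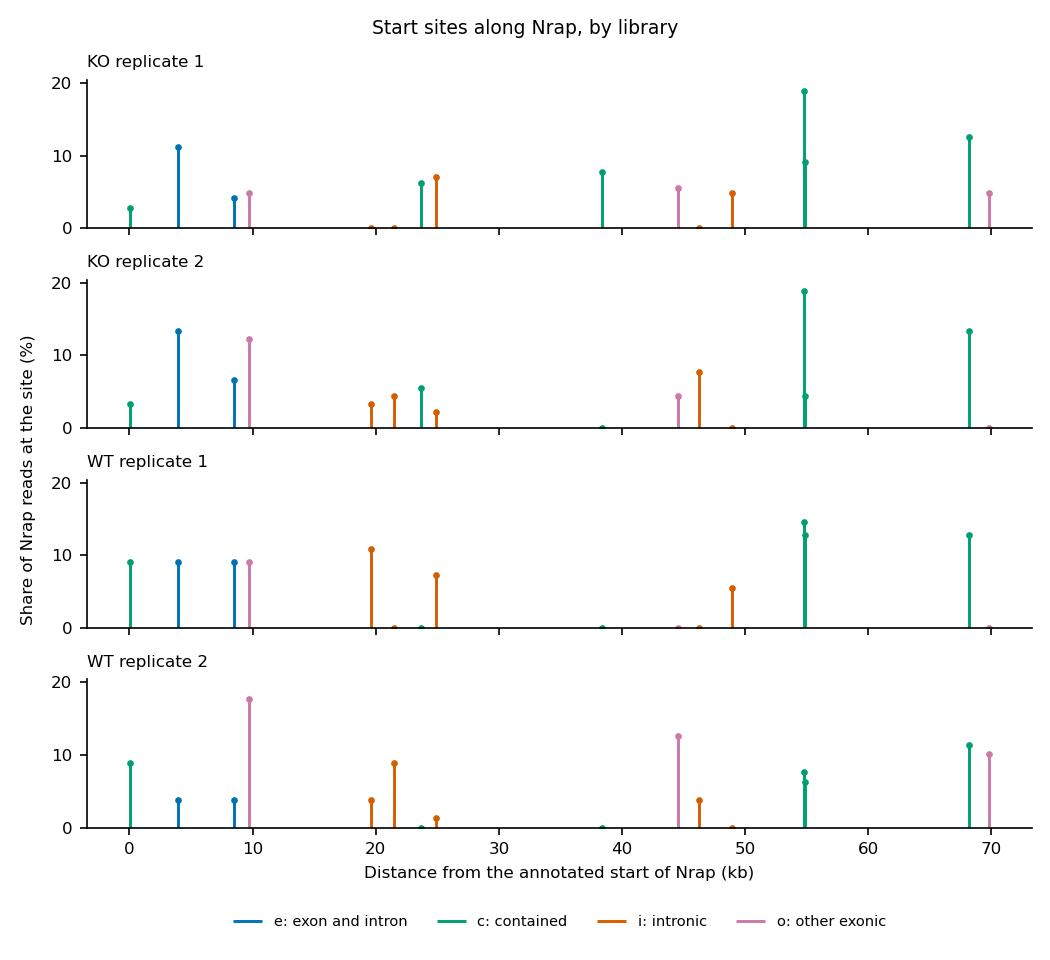
Share of all Nrap reads at each of the 16 Nrap start sites (vertical axis, percent) against the distance from the annotated start (horizontal axis, kb), in 1 panel per library and coloured by class code. No site exceeded 18.9% of Nrap reads in any library, and 8 of the 16 sites had reads in all 4 libraries.

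No gene was called in either direction in a list of 45 genes of the nebulin family, the thin filament and its partners that included Neb and Nrap. Of the 45 genes 43 had reads and 37 were tested, and their median log2 fold change was -0.059 against 0.010 over all genes tested. Of the 37, 16 were positive and 21 negative, with 2 at an unadjusted p under 0.05 by DESeq2, and edgeR called 0 with 1 under 0.05. Over all genes DESeq2 called 125 of 4688 and had 458 at an unadjusted p under 0.05. In the family, only Neb and Nrap were tested. Nebl, which encodes nebulette of the cardiac Z-disc, had 0 and 1 reads in KO against 0 and 9 in WT, too few for a test, and Lasp1, a small actin-binding member, had no row. Of the 10 tested thin filament genes, 4 were positive and 6 negative. Of the 8 genes that set filament ends and length, all were tested and 4 were positive. Both tested genes of Kelch proteins, Klhl41 and Klhl31, were negative, and 8 of 15 tested Z-disc and junction partners were positive.

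Among the 37 tested genes, the highest log2 fold changes were those of Tnnt1, slow skeletal troponin T (107 and 108 reads in KO, against 5 and 37 in WT, log2 fold change of 1.58 with an SE of 0.84, adjusted p = 0.557 by DESeq2), and Tmod1, which caps the pointed end of the thin filament. Tmod1 had 147 and 148 reads in KO against 31 and 28 in WT, or 89.8 and 129 against 43.5 and 34.9 normalized counts (log2 fold change of 1.48 with an SE of 0.63, adjusted p = 0.320 by DESeq2). The lowest of the 37 were those of Actc1, cardiac actin (log2 fold change of -1.11, SE 0.69), and Tln1, talin of integrin adhesions (log2 fold change of -0.78, SE 0.63). Markers of slow fibres, of which 4 of 5 were in the table, Tnnt1 among them, summed to 699 and 996 normalized counts in KO. In WT they summed to 259 and 766, so that the groups overlapped. Myh7 held most of these sums (574 and 806 in KO, 217 and 615 in WT). Myh7, Tnnt1 and Tnni1 had a positive log2 fold change and Myl3 a negative one (-0.094). The part of slow fibres in the values of the list genes was not tested. In bulk muscle, a change in the number of fibres of a type and a change in RNA per fibre cannot be told apart.

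The genes whose pattern over the 4 libraries was most like that of Neb were Rabgef1, Baz1b and Gm9392, with root mean square differences of 0.019, 0.045 and 0.046 on the log2(normalized count + 1) scale after each gene was centred on its own mean. For Nrap they were Ubr3, Pde4d and Col1a2, at 0.018, 0.029 and 0.045. Nrap, whose mean was 85.4 normalized counts, would stand 113th in likeness to Neb beside the 1397 genes with a mean of at least 100. With 4 libraries such likeness is a description only.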

How the data were processed

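WTSS-seq libraries of 4 adult mice (2 KO, 2 WT) were made by the authors through ribosomal RNA depletion, first strand synthesis with template switching, size selection and PCR, and sequenced on an Ion PGM instrument. The authors deposited 1 table of raw read counts per clustered start site, with build GRCm38.p5 per the labels and a Cuffcompare class code and gene symbol for each site. Mapping and clustering settings were described for sister libraries of 3′ ends and are not given for these in the sources used here. Handling of reads that fit several places is likewise not given. A line of column totals was left out.

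Here, sites and gene sums were fitted over the whole table with DESeq2 (version 1.42.0, R version 4.3.3; genotype only, adjusted p under 0.1). Its filter on the mean (8.76 normalized counts for sites, 16.5 for genes) left 11112 sites and 4688 genes tested. Alternatives used edgeR (version 4.0.16). Usage was tested with diffSpliceDGE after filterByExpr. Values are normalized by size factors of the site or gene fit. Annotated gene ends and the promoter sequence came from RefSeq tables of GRCm38.p6, where Neb had 0 promoter entries and Nrap had 1. The DESeq2 and edgeR fits of sites and genes and the usage fit of sites were run on simulated counts with known large changes. Shares, positions, likeness and the fits without 1 library were not run on such counts.

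Named sites were those called, the 5 with the highest mean, the 3 nearest the annotated start, the 1 nearest the end and antisense sites with at least 50 reads. Named list genes were the family, those called, or else the 2 highest and 2 lowest. The 3 genes most like Neb and Nrap were named. The members and lists were chosen with earlier results of these data known. Library totals ran from 1300069 to 2900279 reads.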

Additional observations from a re-analysis of the deposited data

How the results depend on the processing

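The summed level of Neb and of Nrap stayed uncalled in every alternative, but its sign was not stable. The log2 fold change of Neb was 0.072 when summed over exonic sites only and ran from -0.36 to 0.21 when 1 library was left out, with 0.070 without KO replicate 1 and 0.21 without WT replicate 2. That of Nrap was 0.30 over exonic sites and ran from -0.24 to 0.077 without 1 library, with 0.0020 without KO replicate 2 and 0.077 without WT replicate 2. Both called Neb sites stayed called with other size factors, at a threshold of 0.05 and without WT replicate 1. The count of Neb sites higher in KO was 0 by edgeR, 0 with independent filtering off and 0 to 1 without 1 library. The count of those lower in KO was likewise 0 by edgeR and 0 to 1 without 1 library. Without WT replicate 2 both were lost and the site nearest the start was called higher in its place, and without either KO library none was called. In every alternative both kept their direction, with log2 fold changes of 1.71 to 2.58 and -3.54 to -2.65. No pairing of the samples by replicate number was seen (correlation of same-numbered deviations 0.073 over 9857 sites), though 2 pairs are too few to settle this. With the replicate block the counts were 1 and 1 by DESeq2 (adjusted p = 0.0771 and 0.0603) and 0 and 0 by edgeR, and the usage of Neb gave an adjusted p of 0.972. Without the 2 called sites the KO minus WT difference moved from 5.29 to 1.04 percentage points for the intronic share of Neb and from 6.94 to -0.11 for part 10 of the gene. Of the thin filament list, 1 gene, Tcap, which encodes a titin cap protein of the Z-disc, was called higher without WT replicate 2 (log2 fold change of 1.85, adjusted p = 0.0988 by DESeq2), and the count was 0 to 1 over such fits. The cause of these changes was not tested. At this depth 3 of the 16 Nrap sites passed the filter on mean counts and were tested.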

Other observations

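Reads on the strand of Neb, within the body of the gene, were also assigned to another symbol. The table gave 13 sites between chr2:52295773 and chr2:52312781 on the minus strand to 4930573O16Rik, a gene on the opposite strand, with the code for antisense to an exon. They held 207 and 203 reads in KO and 59 and 85 in WT, which was 3.69%, 4.13%, 2.57% and 2.18% of the sum of these reads and Neb reads, so that both KO libraries were above both WT libraries. Directions at the single sites were not set beside those of all sites, so no count of them is given. Entry at 10 reads also favoured sites of the deeper KO libraries. These 13 sites were all that carried the symbol 4930573O16Rik, so its gene sum holds the same reads. That sum had a log2 fold change of 0.69 (SE 0.55) and was not called (DESeq2 adjusted p = 0.857, edgeR adjusted p = 0.710). The choice of these sites followed a look at their values, and which transcript the reads came from was not tested.

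Upstream of the annotated start of Neb, on its strand, lay an unassigned site with more reads than most Neb sites. It was 9 bases wide, at chr2:52352787-52352795, 14.0 kb upstream of the start, and had 0 and 152 reads in KO and 95 and 94 in WT. A count of 0 in KO replicate 1, the deepest library, allows up to 3 reads, whereas the other 3 libraries ranged from 109 to 131 normalized counts. It was not called between genotypes (adjusted p = 1.00 by DESeq2). A second unassigned site 9.39 kb upstream had 3 and 0 reads in KO and 2 and 5 in WT. Both sites were chosen with their values in view.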
